A study of Arabidopsis thaliana with 9 samples.

Results

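The genes described here encode 10 proteins of chlorophyll synthesis in Arabidopsis thaliana, picked by locus identifier from a deposited expression table of 33278 loci. They are HEMA1 (AT1G58290), CHLH (AT5G13630), CHLD (AT1G08520), CHLI1 (AT4G18480), GUN4 (AT3G59400), CRD1 (AT3G56940), PORA (AT5G54190), PORB (AT4G27440), PORC (AT1G03630) and CAO (AT1G44446). All 10 were found in the table. RNA-seq had been done on 6-day seedlings of wild type Columbia-0 and of plants labelled as an hd2b hd2c double mutant, with 2 libraries per genotype, and the growth protocol in the labels gives soil, 21 degrees C and continuous light for both. HD2B and HD2C are plant-specific histone deacetylases. The labels name no mutant alleles. They also leave unsaid whether both libraries of a genotype are separate batches of plants, so a p-value here reflects the spread between libraries and perhaps only technical spread. The other 5 samples of the series, from 2-week leaves, are not analysed here.

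Chlorophyll is made in the plastid by enzymes encoded in the nucleus. Glutamate bound to its transfer RNA is turned into 5-aminolevulinic acid, the precursor of all tetrapyrroles, and this step limits the flow through the pathway. After several shared steps the path branches: a ferrochelatase inserts iron to give haem, and magnesium chelatase inserts magnesium to give the first committed intermediate of chlorophyll. A cyclase closes the last ring of that intermediate, a light-dependent reductase turns protochlorophyllide into chlorophyllide, and an oxygenase makes chlorophyll b from the a form. In seedlings these genes are strongly induced by light, and free intermediates are toxic in light, so synthesis is tightly regulated.

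Values are FPKM, fragments scaled to transcript length and library size, as the authors deposited them, so levels can be compared between genes. Comparisons between libraries also depend on how the columns are scaled. The columns summed to between 956002 and 1105981 FPKM, the largest being labelled mutant library 2, and sequencing depth is unknown. HD2B was at 138 and 191 FPKM in the wild-type libraries against 24.2 and 24.3 FPKM in the labelled mutant libraries (log2 change −2.69, SE 0.17, adjusted p = 3.62e-04). HD2C was at 56.1 and 63.9 FPKM in the wild-type libraries against 74.7 and 55.8 FPKM in the labelled mutant libraries (adjusted p = 0.791). Since the HD2C transcript was not reduced, the term labelled mutant is used, and directions rest on the labels together with HD2B. The genotypes were compared with limma on log2(FPKM + 1) over the 19917 loci that reached 1 FPKM in 2 or more libraries, with p-values adjusted over all of them and a threshold of 0.05. A log2 change is labelled mutant minus wild type, and ± is the SD of 2 libraries.

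Labelled mutant library 1 had the lowest sum of green genes and the highest sum of root genes, while wild-type library 1 had the lowest root sum. The 17 antenna protein genes, which encode the chlorophyll-binding proteins of the photosystems and mark green tissue, summed to 101676 and 92356 FPKM in wild type, to 68038 FPKM in labelled mutant library 1 and to 96737 FPKM in library 2. The 14 root hair and endodermis markers summed to 68.0 and 102 FPKM in wild type, to 146 FPKM in labelled mutant library 1 and to 96.7 FPKM in library 2. None of these 14 root markers was at 0 in any library. Labelled mutant library 1 also had the lowest value of every chlorophyll synthesis gene, and the part of tissue makeup in these values was not tested. In RNA from whole seedlings, fewer green cells and less RNA per green cell cannot be told apart.

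None of the 10 chlorophyll synthesis genes passed the threshold in either direction, against 1.16% of all tested loci (0.608% higher and 0.552% lower). The same fit gave 2 of the 10, HEMA1 and CHLD, an unadjusted p under 0.05 in the lower direction, against 7.95% of tested loci. Their log2 changes ran from −0.48 to 0.01 with a median of −0.25, beside a median of 0.00 over all tested loci. Of the 10, 8 had a value below 0, as did 49.3% of tested loci. In 5 of them (HEMA1, CHLH, CHLD, PORB and PORC) both labelled mutant libraries were below both wild-type libraries, a pattern seen in 25.1% of tested loci. In the other 5 the genotypes overlapped.

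The difference was larger between the libraries numbered 1 than between those numbered 2. Between the former all 10 genes were lower in the labelled mutant, with a median of −0.35. Between the latter the median was −0.07, and 6 of 10 were lower. The numbers are not shown to pair the libraries. Without labelled mutant library 1 the median log2 change of the 10 genes was −0.08, and without labelled mutant library 2 it was −0.39. The summed FPKM of the 10 genes was 3758 and 3678 in the wild-type libraries against 2933 and 3662 in the labelled mutant libraries. Both labelled mutant sums were below both wild-type sums, and how far library 2 lay below depended on the scale, since its whole column was the largest. As a share of the column sum, the 10 genes made up 0.380% and 0.371% in the wild-type libraries against 0.307% and 0.331% in the labelled mutant libraries.

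**Figure D1:**
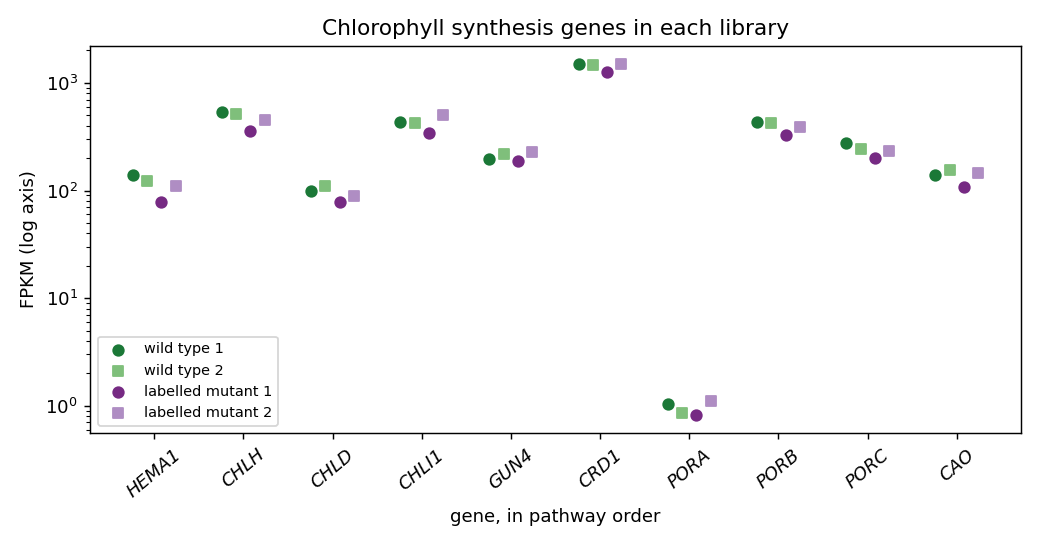
Level of each chlorophyll synthesis gene in FPKM (log axis) in the 4 libraries, with genes in pathway order and 1 point per library. CRD1 lies highest, between 1253 and 1512 FPKM, and PORA lowest, near 1 FPKM, while labelled mutant library 1 has the lowest point for every gene.

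The 10 genes covered a wide span of levels. CRD1 was the most abundant, with 1488 ± 14.5 FPKM in wild type, and ranked 60 by mean level among all tested loci. CHLH followed with 523 ± 19.7 FPKM, then PORB with 430 ± 9.85 and CHLI1 with 427 ± 8.53, whose wild-type ranges overlapped. PORC (259 ± 23.5), GUN4 (207 ± 12.9) and CAO (146 ± 11.2) came next. CAO and HEMA1 (131 ± 12.5 FPKM) again overlapped in wild type, and CHLD was below them with 105 ± 8.51 FPKM. PORA stood at 0.950 ± 0.118 FPKM, 110-fold below CHLD, and at rank 19796 of the 19917 tested loci. In the labelled mutants the order of group means was the same except that CHLI1 (426 FPKM) stood second, above CHLH (403 FPKM) and PORB (356 FPKM).

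HEMA1 begins the pathway and had the largest log2 change of the 10 in size. It encodes the main glutamyl-tRNA reductase of green tissue, the enzyme of the limiting step. HEMA1 was at 140 and 122 FPKM in the wild-type libraries against 78.4 and 111 FPKM in the labelled mutant libraries. Both labelled mutants were below both wild types, with library 1 far below and library 2 close to the nearer wild-type value. The group means were 131 ± 12.5 and 94.8 ± 23.3 FPKM, 1.38-fold lower in the labelled mutants (log2 −0.48, SE 0.18, adjusted p = 0.246). The 95% interval of the log2 change ran from −0.91 to −0.06. HEMA1 passed the threshold when columns were scaled to equal sums (adjusted p = 0.0346), when they were rescaled without rRNA loci (0.0316) and without labelled mutant library 2 (0.0469). It did not pass without labelled mutant library 1 (adjusted p = 0.403, log2 −0.23).

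The other genes of 5-aminolevulinic acid synthesis that entered the fit had smaller log2 changes in size than HEMA1, a contrast that was not tested. Of 7 listed, 6 were tested, none was called, and their median log2 change was −0.05, with none of the 6 separating the genotypes. HEMA2, the second reductase gene, was at 7.13 and 7.95 FPKM in the wild-type libraries against 6.17 and 7.63 FPKM in the labelled mutant libraries. HEMA3, the third reductase gene, stayed under 1 FPKM in every library and was not tested. Near that floor it was higher in both labelled mutants, at 0.486 and 0.858 FPKM against 0.208 and 0.288 FPKM in wild type. GSA2, an aminomutase gene of the next reaction, was at 188 and 174 FPKM in the wild-type libraries against 158 and 219 FPKM in the labelled mutant libraries. FLU encodes a protein that holds glutamyl-tRNA reductase back in the dark. FLU was at 103 and 120 FPKM in the wild-type libraries against 97.8 and 119 FPKM in the labelled mutant libraries, so that the groups overlapped.

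Between 5-aminolevulinic acid and protoporphyrin IX, 9 of 10 listed genes were tested and none was called, although all 9 had a log2 change below 0 (median −0.10). All 9 were lower in the labelled mutant between the libraries numbered 1 (median −0.28). Only 3 were lower between those numbered 2 (median 0.05). HEMD, which encodes the synthase of uroporphyrinogen III, was at 41.1 and 41.1 FPKM in the wild-type libraries against 30.2 and 32.4 FPKM in the labelled mutant libraries (log2 −0.38, SE 0.12, adjusted p = 0.164). HEMF2, listed among the coproporphyrinogen oxidase genes, was at 18.3 and 17.9 FPKM in the wild-type libraries against 15.0 and 14.1 FPKM in the labelled mutant libraries. In these 2 of the 9 both labelled mutants were below both wild types, a share near the 25.1% of all tested loci. HEMB2 was listed at 0 in 3 libraries and was not tested.

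Magnesium chelatase has subunits H, D and I, and none of their transcripts passed the threshold. CHLH, the large subunit that binds the porphyrin, was at 537 and 509 FPKM in the wild-type libraries against 355 and 451 FPKM in the labelled mutant libraries. Both labelled mutants were below both wild types, library 1 more so. The mean was lower (523 ± 19.7 against 403 ± 68.0 FPKM, log2 −0.39, SE 0.17, adjusted p = 0.302), with a 95% interval from −0.78 to 0.01. The log2 change of CHLH was −0.21 without labelled mutant library 1 (adjusted p = 0.399) and −0.56 without library 2 (adjusted p = 0.0794). CHLH passed the threshold with columns scaled to equal sums (adjusted p = 0.0465) and rescaled without rRNA loci (0.0443), while with the trend on gene span removed its log2 change was −0.25 (adjusted p = 0.492). CHLH spans 5123 bp in the reference gene table, where the median tested locus spans 2356 bp.

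CHLD, the subunit that forms the ATPase complex together with CHLI, was at 98.9 and 111 FPKM in the wild-type libraries against 78.3 and 89.1 FPKM in the labelled mutant libraries. Matched by number, its log2 differences were −0.33 and −0.31, but the numbers are not shown to pair the libraries. With each library left out in turn, the log2 change of CHLD ran from −0.41 to −0.23. The mean was 1.25-fold lower (log2 −0.32, SE 0.14, adjusted p = 0.286), and it was −0.21 with the trend on gene span removed, CHLD spanning 4642 bp. CHLI1, the main ATPase subunit, was at 433 and 421 FPKM in the wild-type libraries against 346 and 506 FPKM in the labelled mutant libraries. The labelled mutants thus lay on either side of wild type, and the log2 change was −0.03 (SE 0.20, 95% interval −0.49 to 0.43, adjusted p = 0.963). Its closely related second gene CHLI2 was at 91.9 and 83.8 FPKM in the wild-type libraries against 75.5 and 104 FPKM in the labelled mutant libraries, with the same library low and the same library high. How reads shared between such copies were counted is not given in the sources used here.

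GUN4 binds porphyrins and stimulates magnesium chelatase. It was at 198 and 216 FPKM in the wild-type libraries against 190 and 228 FPKM in the labelled mutant libraries. The genotypes overlapped and the log2 change was 0.01 (SE 0.15, 95% interval −0.34 to 0.36, adjusted p = 0.985). Its sign was negative with quantile normalization (log2 −0.13), with equal column sums (−0.04) and after removal of the trend on gene span (−0.11).

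CRD1, also called CHL27, is a subunit of the cyclase that closes the last ring. It was at 1498 and 1477 FPKM in the wild-type libraries against 1253 and 1512 FPKM in the labelled mutant libraries. Library 1 was low and library 2 was above both wild types (log2 −0.11, SE 0.18, 95% interval −0.53 to 0.31, adjusted p = 0.806). With columns scaled to equal sums CRD1 and CAO also had both labelled mutants below both wild types, which made 7 of the 10 genes lower in both, against 29.6% of loci tested on that scale. YCF54, a partner of CRD1 in the cyclase, was at 318 and 315 FPKM in the wild-type libraries against 323 and 358 FPKM in the labelled mutant libraries (log2 0.10, adjusted p = 0.774).

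**Figure D2:**
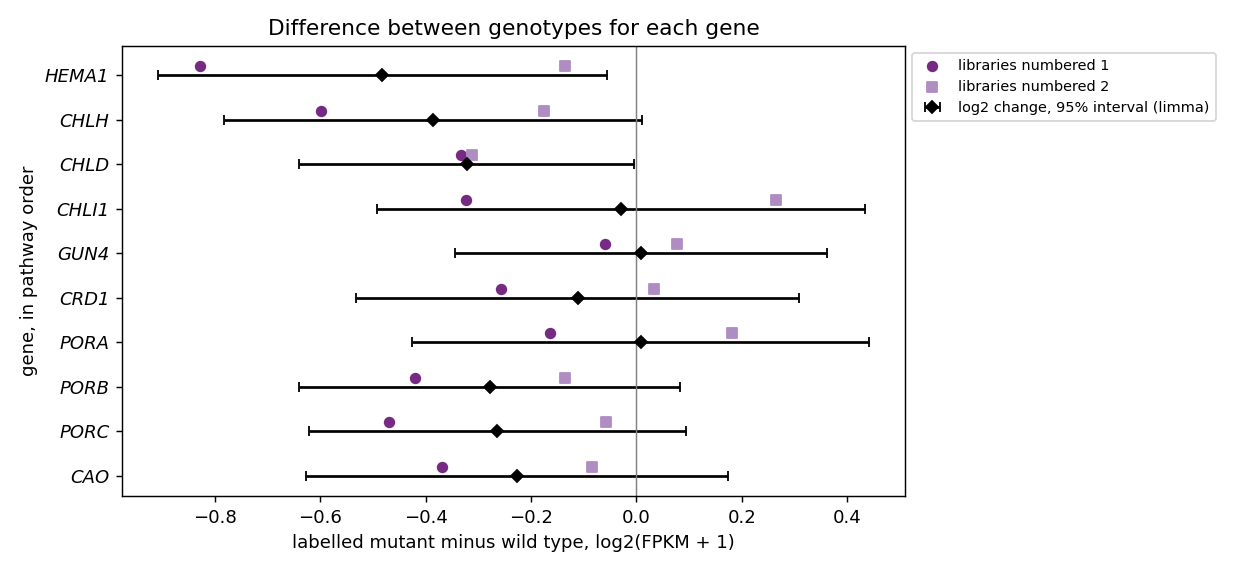
Difference between genotypes (labelled mutant less wild type, in log2(FPKM + 1)) for the 10 genes, in pathway order. Black diamonds are the log2 changes with 95% intervals from limma, dark circles the difference between the libraries numbered 1 and light squares that between those numbered 2. Every circle is left of 0, 4 squares are right of it, and the circle and square of CHLD nearly coincide. Circles and squares rest on matching by number, which is not shown to pair the libraries.

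Protochlorophyllide oxidoreductase needs light to act, and Arabidopsis has 3 genes for it. PORA serves mainly in dark-grown seedlings and its transcript declines in light, whereas PORB and PORC act in green tissue. PORA was at 1.03 and 0.866 FPKM in the wild-type libraries against 0.814 and 1.12 FPKM in the labelled mutant libraries. The groups overlapped and the log2 change was 0.01 (SE 0.19, adjusted p = 0.989). PORA passed the filter on low values narrowly, since 2 of its 4 values reached 1 FPKM, and 1 of those was in each genotype.

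PORB was at 437 and 423 FPKM in the wild-type libraries against 326 and 385 FPKM in the labelled mutant libraries (1.21-fold lower, log2 −0.28, SE 0.16, adjusted p = 0.410). PORC was at 276 and 243 FPKM in the wild-type libraries against 199 and 233 FPKM in the labelled mutant libraries (log2 −0.26, SE 0.16, adjusted p = 0.432). In both genes the labelled mutants lay below wild type without overlap, library 1 more clearly. Without labelled mutant library 1 the log2 change was −0.16 for PORB and −0.15 for PORC, and for PORC it was −0.17 without wild-type library 1. The summed FPKM of the 3 genes was 714 and 667 in the wild-type libraries against 526 and 619 in the labelled mutant libraries. PORB made up 61.2% and 63.5% of that sum in the wild-type libraries and 62.0% and 62.2% in the labelled mutant libraries, and PORC nearly all of the rest. PORA made up 0.137% ± 0.0104 in wild type against 0.167% ± 0.0182 in the labelled mutants. The makeup of the POR transcripts was thus close in all 4 libraries while their summed level was lower in the labelled mutants.

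CAO, chlorophyllide a oxygenase, makes chlorophyll b, the accessory pigment of the antenna. It was at 138 and 154 FPKM in the wild-type libraries against 107 and 145 FPKM in the labelled mutant libraries. Library 1 was below both wild types and library 2 between them (log2 −0.23, SE 0.17, 95% interval −0.63 to 0.17, adjusted p = 0.553). The log2 change of CAO was −0.01 without labelled mutant library 1, −0.45 without library 2 and −0.15 without wild-type library 2.

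The remaining 9 genes of the chlorophyll branch were all tested and none was called, with a median log2 change of −0.11. DVR, which reduces the 8-vinyl group, was at 150 and 140 FPKM in the wild-type libraries against 96.6 and 133 FPKM in the labelled mutant libraries (log2 −0.35, SE 0.17, adjusted p = 0.353). Its log2 change was −0.12 without labelled mutant library 1 (adjusted p = 0.663) and −0.58 without library 2 (adjusted p = 0.0765). CHLM, the methyltransferase between magnesium chelatase and the cyclase, was at 299 and 330 FPKM in the wild-type libraries against 230 and 323 FPKM in the labelled mutant libraries. CHLP, the geranylgeranyl reductase that makes the phytol tail, was at 902 and 912 FPKM in the wild-type libraries against 605 and 968 FPKM in the labelled mutant libraries. Labelled mutant library 1 was again the lowest of the 4 in all 3 genes. Library 2 was above both wild types in CHLP and between them in CHLM.

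**Figure D3:**
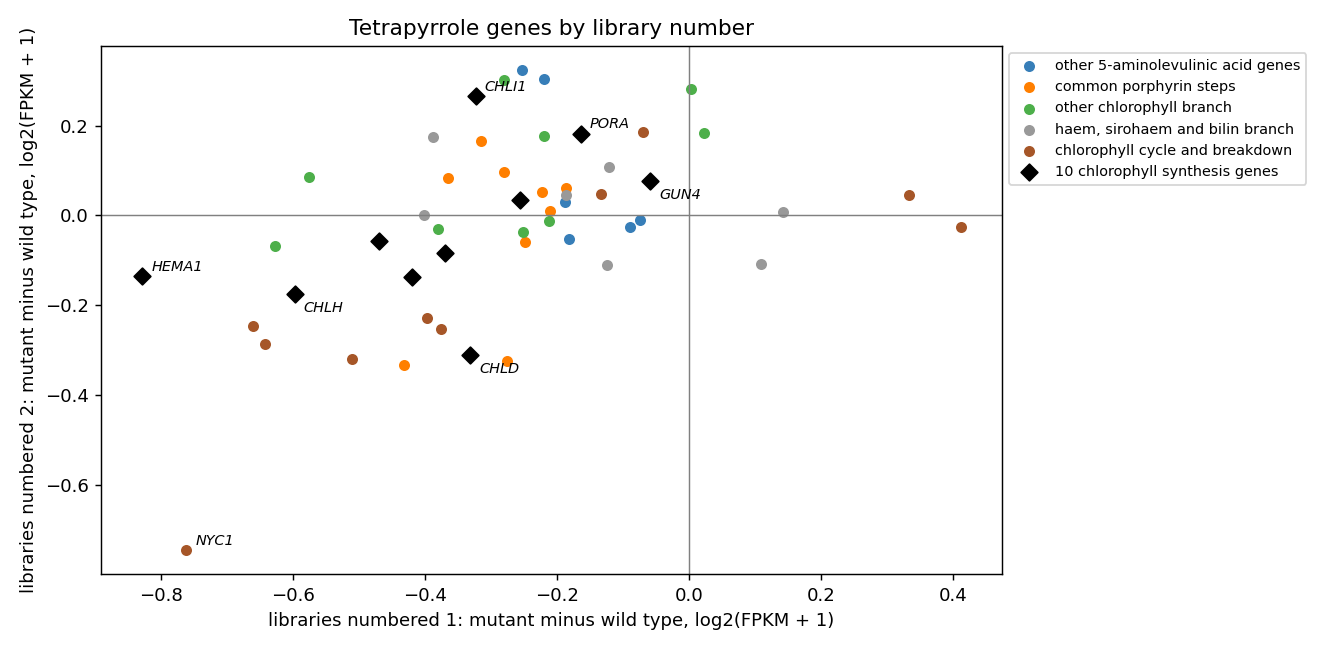
Difference between labelled mutant and wild type, in log2(FPKM + 1), in the libraries numbered 1 (horizontal) and numbered 2 (vertical), for the 10 chlorophyll synthesis genes (diamonds) and the 41 other tested tetrapyrrole genes (circles, coloured by step). All diamonds lie left of 0 and 6 of them below 0, and NYC1 lies at −0.76 and −0.75, apart from the rest. Positions rest on matching by number, which is not shown to pair the libraries.

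Ratios between genes of the same library do not depend on column scaling. The pairs given here were chosen after their values were seen and have no test. HEMA1 over GSA2, neighbouring steps, was 0.743 and 0.701 in the wild-type libraries against 0.496 and 0.509 in the labelled mutant libraries. This ratio was lower in both labelled mutant libraries, by nearly the same amount, although the level of HEMA1 itself differed between them. CHLI1 over CHLH was 0.806 and 0.826 in the wild-type libraries against 0.975 and 1.12 in the labelled mutant libraries, so that the small subunit was more abundant relative to the large subunit in both. CHLH over GUN4 was 2.71 and 2.36 in the wild-type libraries against 1.87 and 1.97 in the labelled mutant libraries.

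Other ratios of the pathway overlapped or differed less. CHLH over CHLD was 5.43 and 4.59 in the wild-type libraries against 4.53 and 5.06 in the labelled mutant libraries, and PORB over PORC was 1.58 and 1.74 against 1.64 and 1.65. In both ratios the genotypes overlapped. CHLI1 over CHLI2 also overlapped, at 4.71 and 5.02 in the wild-type libraries against 4.58 and 4.89 in the labelled mutant libraries. CHLI1 over CHLD was 4.38 and 3.80 in the wild-type libraries against 4.42 and 5.68 in the labelled mutant libraries, library 1 lying next to a wild-type value. CRD1 over YCF54 was 4.71 and 4.69 in the wild-type libraries against 3.88 and 4.23 in the labelled mutant libraries.

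**Figure D4:**
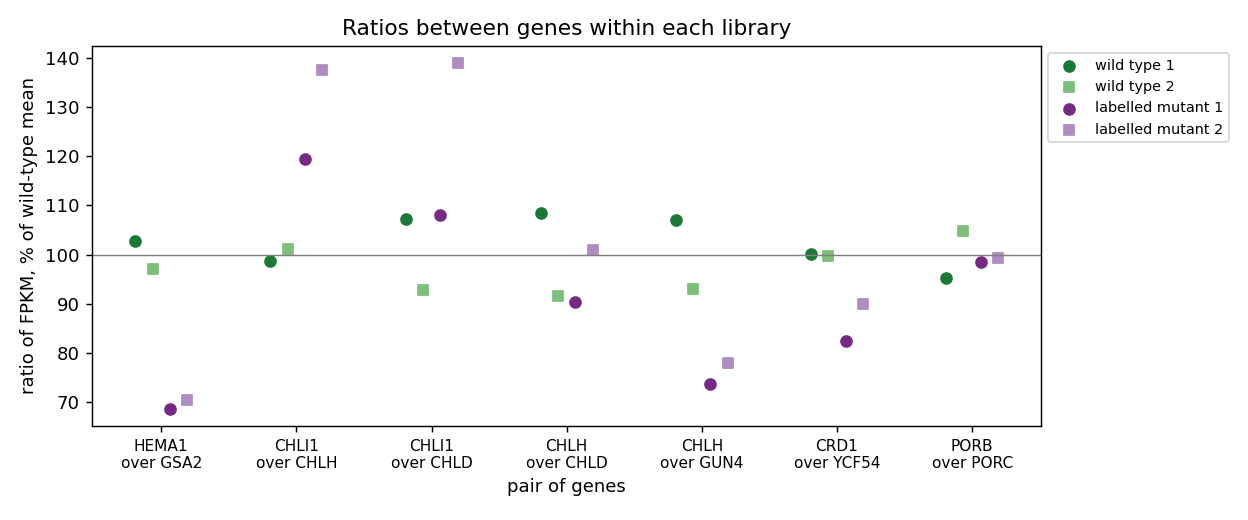
Ratio of FPKM between 2 genes of the same library, as a percentage of the wild-type mean of that ratio (horizontal line at 100), with 1 point per library. HEMA1 over GSA2, CHLH over GUN4 and CRD1 over YCF54 lie below wild type in both labelled mutants. CHLI1 over CHLH lies above, as does CHLI1 over CHLD, there with labelled mutant library 1 next to a wild-type value. PORB over PORC and CHLH over CHLD overlap.

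On the competing branch to haem, sirohaem and bilins, 7 of 9 listed genes were tested and none was called (median log2 change −0.07). FC2, the plastid ferrochelatase of green tissue, was at 54.4 and 50.3 FPKM in the wild-type libraries against 40.9 and 50.4 FPKM in the labelled mutant libraries. CHLH over FC2, the ratio of a magnesium to an iron chelatase transcript, was 9.87 and 10.1 in the wild-type libraries against 8.66 and 8.95 in the labelled mutant libraries. FC1, the other ferrochelatase gene, was at 30.1 and 30.6 FPKM in the wild-type libraries against 33.3 and 30.7 FPKM in the labelled mutant libraries. The haem oxygenase genes HO3 and HO4 were under 1 FPKM in all libraries and were not tested.

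Among the 10 genes of the chlorophyll cycle and breakdown none was called, and the median log2 change was −0.31. In 6 of them both labelled mutants were below both wild types, beside the 25.1% of all tested loci. NYC1, a chlorophyll b reductase that works in the direction opposite to CAO, had the smallest p of the other tetrapyrrole genes. NYC1 was at 29.2 and 23.9 FPKM in the wild-type libraries against 16.8 and 13.9 FPKM in the labelled mutant libraries (1.73-fold lower, log2 −0.75, SE 0.15, adjusted p = 0.0594). Both labelled mutants were well below wild type. Matched by number, the log2 differences were −0.76 and −0.75, but the numbers are not shown to pair the libraries. With each library left out in turn, the log2 change of NYC1 ran from −0.89 to −0.62. NYC1 passed with equal column sums (adjusted p = 0.0210), without labelled mutant library 1 (0.0413) and without wild-type library 2 (0.00821), and its values without the other 2 libraries were 0.153 and 0.103.

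The partner of NYC1 and the next enzyme of the cycle also lay lower in both labelled mutants. NOL, the second chlorophyll b reductase gene, was at 26.6 and 27.2 FPKM in the wild-type libraries against 18.4 and 21.6 FPKM in the labelled mutant libraries (log2 −0.42, SE 0.12, adjusted p = 0.161). HCAR, which completes the return from chlorophyll b to a, was at 19.9 and 17.9 FPKM in the wild-type libraries against 12.4 and 14.5 FPKM in the labelled mutant libraries (log2 −0.47, SE 0.13, adjusted p = 0.145). PPH, the pheophytinase that removes the phytol tail during breakdown, was at 34.6 and 36.4 FPKM in the wild-type libraries against 26.5 and 30.4 FPKM in the labelled mutant libraries (adjusted p = 0.251).

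Of 14 regulators of the pathway none was called, and the median log2 change was −0.14. GLK1 and GLK2 are transcription factors that activate HEMA1, CHLH, GUN4, CRD1, CAO and antenna genes. GLK1 was at 141 and 139 FPKM in the wild-type libraries against 98.8 and 142 FPKM in the labelled mutant libraries, and GLK2 at 123 and 138 against 103 and 161. In both, labelled mutant library 1 was the lowest and library 2 the highest of the 4. PIF4, a phytochrome-interacting factor, was at 49.9 and 48.3 FPKM in the wild-type libraries against 36.4 and 38.5 FPKM in the labelled mutant libraries (log2 −0.38, SE 0.12, adjusted p = 0.170). FHY3, which activates HEMB1, was at 19.2 and 20.3 FPKM in the wild-type libraries against 17.4 and 15.9 FPKM in the labelled mutant libraries (adjusted p = 0.356). CGA1, a cytokinin-responsive GATA factor that promotes greening, was at 10.9 and 10.7 FPKM in the wild-type libraries against 13.4 and 13.1 FPKM in the labelled mutant libraries (log2 0.28, SE 0.12, adjusted p = 0.284).

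**Figure D5:**
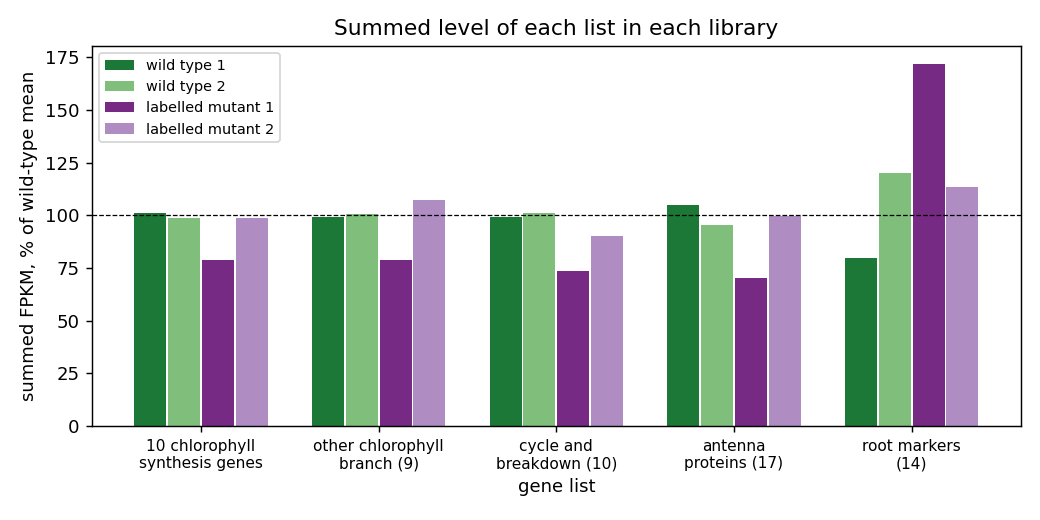
Summed FPKM of 5 gene lists in each library, as a percentage of the wild-type mean (dashed line at 100), with 1 bar per library. Labelled mutant library 1 is at 78.9% for the 10 chlorophyll synthesis genes, 70.1% for the antenna proteins and 172% for the root markers, and labelled mutant library 2 at 98.5%, 99.7% and 114%.

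The antenna proteins bind the finished pigment. On the deposited scale their summed FPKM in labelled mutant library 2 lay between the wild types. That of the synthesis genes lay just below both, at 3662 FPKM beside 3678 FPKM in the nearer wild type. Relative to the column sums, the antenna sum of labelled mutant library 2 also lay below both wild types. None of the 17 was called, all 17 had a log2 change below 0 (median −0.25), and the median was −0.59 for the libraries numbered 1 and 0.02 for those numbered 2. LHCB2.3 was at 1893 and 1821 FPKM in the wild-type libraries against 959 and 1561 FPKM in the labelled mutant libraries (adjusted p = 0.269). It passed with columns scaled to equal sums (adjusted p = 0.0391) and rescaled without rRNA loci (0.0363). Its log2 change was −0.25 without labelled mutant library 1 and −0.95 without library 2. Root markers had the opposite sign, with 13 of 14 above 0 and none called. Their median log2 change was 0.40, with 0.90 for the libraries numbered 1 and −0.08 for those numbered 2. The libraries numbered 1 held both the lowest root sum (wild type) and the highest (labelled mutant). PRP3, a wall protein gene of root hairs, was at 9.63 and 14.9 FPKM in the wild-type libraries against 23.5 and 15.6 FPKM in the labelled mutant libraries, and it passed without wild-type library 2 (adjusted p = 0.0459).

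The loci whose pattern over the 4 libraries was closest to the median of the 10 genes were sought among tested loci with a mean of at least 10 FPKM. Likeness was the Euclidean distance of log2(FPKM + 1) less its own mean. The closest was CRTISO (AT1G06820), the carotenoid isomerase of the plastid, at 26.3 and 26.6 FPKM in the wild-type libraries against 20.6 and 26.2 FPKM in the labelled mutant libraries. Next came AT1G31920, SHL1 (AT4G39100), RBL2 (AT1G63120), AT3G09980 and TMT2 (AT4G35300). The 6 distances ran from 0.0341 to 0.0419, and over 4 libraries many loci can lie this close.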

How the data were processed

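Per the labels' protocols, Trizol was used for RNA and a TruSeq kit for libraries. The authors deposited FPKM for 33278 loci in 4 libraries, per the file headers. Per the submitters' processing notes the build was TAIR10 and the tools were TopHat, Bowtie2 and bedtools, without their roles. What computed FPKM, and how strand and shared reads were handled, is not given in the sources used here. Without counts, depth is unknown and intervals of counting error cannot be had.

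Columns were matched to libraries by genotype abbreviation and number. limma 3.58.1 (R 4.3.3) was run on log2(FPKM + 1), which understates changes of low genes, with genotype as the only term, a mean-variance trend and robust moderation, over the 19917 loci that reached 1 FPKM in 2 or more libraries. P-values were two-sided with Benjamini-Hochberg adjustment. The fit was run on simulated data drawn independently for each locus, with no shift shared by the genes of a library. That run could not check the p-values against such shared shifts. Folds are ratios of mean FPKM. Symbols and gene spans came from a RefSeq table of TAIR10.1, to which 32820 loci (98.6%) matched. CHLH, CHLD and CAO are GUN5, ALB1 and CH1 there.

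The genes, lists and tests were chosen with earlier results of these data known. The rule for naming took the 10 members, the HD2 genes, up to 3 per list with the smallest p, and the 6 loci of closest pattern. Of these, GBP, OVA3, PPO2, SIRB, HY2, LHCB4.2, LHCB1.4, XTH26 and CASP4 are not described above. XTH26 (log2 0.73, adjusted p = 0.171) and CASP4 (log2 0.87, adjusted p = 0.251) had smaller p than PRP3. HD2A (log2 0.88, adjusted p = 0.109) and HD2D (log2 0.73, adjusted p = 0.0476) were higher in both labelled mutants. Others (GSA2, FLU, HEMA3, CHLI2, YCF54, FC1, PPH, GLK1, GLK2, HEMB2, HO3 and HO4) were added for their role after their values were seen. A planned promoter motif description was not run.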

Additional observations from a re-analysis of the deposited data

How the results depend on the processing

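The median log2 change of the 10 genes stayed below 0 in all alternatives, from −0.39 to −0.08 when each library was left out in turn and from −0.36 to −0.21 otherwise. Calls among the 10 arose in 3 alternatives: HEMA1 and CHLH, that is 2 genes, with equal column sums and also after rescaling without rRNA loci, and HEMA1 without labelled mutant library 2, so that leaving out libraries gave 0 to 1. Over all loci, 603 of 19915 were called with equal column sums and 622 of 19915 after rescaling without rRNA loci. On the deposited scale 231 of 19917 were called. Both rescalings of the count of genes without overlap, chosen after seeing the data, gave 7 against 5. PORA could not be tested at a mean of at least 5 FPKM.

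Over all loci 121 were higher and 110 lower. The counts were 327 and 276 with equal column sums, 336 and 286 after rescaling without rRNA loci, 40 and 21 with every locus tested, 79 and 67 at a mean of at least 5 FPKM, 69 and 66 with neither trend nor robust moderation, 31 and 26 at a threshold of 0.01, and 60 higher after removal of the trend on gene span. Leaving out each library gave 147 to 364 higher. The cause of these shifts was not tested. With a replicate block 260 were higher and 172 lower, and none of the 10 genes was called (smallest adjusted p = 0.161), while NYC1 passed (adjusted p = 0.0138). Same-numbered libraries deviated together with r = 0.17 over the tested loci, which with 2 pairs does not show that the numbers pair the samples.

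Signs turned in the following genes. GUN4 was at −0.13 with quantile normalization, −0.045 with equal column sums, −0.046 after rescaling without rRNA loci and −0.11 after removal of the span trend, alone or with the replicate block. PORA was at −0.035, −0.021, −0.021 and −0.040 in the same order. With each library left out in turn, log2 changes ran from −0.30 to 0.24 for CHLI1, −0.12 to 0.14 for GUN4, −0.25 to 0.024 for CRD1, −0.10 to 0.12 for PORA, −0.10 to 0.31 for HD2C, −0.25 to 0.017 for HEMA2, −0.45 to 0.039 for CHLM and −0.58 to 0.093 for CHLP. The HD2B call ended with every locus tested (adjusted p = 0.197). The HD2D call also ended there (adjusted p = 0.309), with 0.1 in place of 1 added before log2 (0.0514), and with neither trend nor robust moderation (0.0981). It ended at a threshold of 0.01 as well. Leaving out libraries gave HD2D log2 changes from 0.64 to 0.83. With 2 libraries per genotype and depth unknown, a missed threshold does not show that levels were equal.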
